A study of Mus musculus with 4 samples.

Results

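The genes described here are 10 genes of the canonical Wnt pathway: the ligand genes Wnt3 and Wnt8a, the transducer gene Ctnnb1, the TCF/LEF transcription factor genes Lef1, Tcf7, Tcf7l1 and Tcf7l2, and the target genes Axin2, Nkd1 and Sp5. They were found by gene symbol, 10 of 10, among 54146 mouse genes of the deposited table. Nascent RNA, labelled with 4-thiouridine (4sU) and sequenced by TT-seq, was measured in mouse embryonic stem (ES) cells labelled Supt3 KO and in ES cells labelled Supt3 WT, with 2 libraries of each genotype. All were kept in LIF and serum, and 4sU-labelled S. pombe RNA had been added to each as a spike-in. Supt3 encodes a core subunit of the coactivator complex SAGA. The labels do not describe the mutant allele, the ES cell line, or whether the KO cells are 1 clone, and no label ties them to separate cultures. The p-values therefore reflect library-to-library spread alone, and that spread may be technical.

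In canonical Wnt signalling a secreted ligand binds Frizzled and LRP receptors, which stops a destruction complex built on Axin, APC and GSK3 from degrading beta-catenin. Beta-catenin then enters the nucleus and joins TCF/LEF proteins on DNA, where they otherwise act with Groucho/TLE corepressors. Axin2, Nkd1 and Sp5 are transcribed in response and dampen the pathway. In mouse ES cells the pathway supports self-renewal, and Tcf7l1 acts there mainly as a repressor of pluripotency genes.

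Mouse genes held 13092151 and 18386501 counts in the KO libraries and 13512654 and 19405100 counts in the WT libraries. The ratio of mouse to S. pombe counts was 2.71 and 4.86 in KO and 3.25 and 5.60 in WT. Supt3 itself stood at 123 and 140 CPM in KO and at 148 and 159 CPM in WT, and it did not pass the test (log2 fold change -0.22 ± 0.10, SE; edgeR, adjusted p = 0.232), so the RNA level is no check of the genotype label. CPM, the usual unit for a gene's share of the library, was taken over mouse counts with TMM (trimmed mean of M-values) factors, so levels are relative to the bulk of nascent transcripts. Of 10 ES cell markers 9 were tested, and their summed level was 1507 and 1753 CPM in KO and 2159 and 2181 CPM in WT. Nanog and Klf4 were called lower and 7 did not pass. Among those 7 were the most abundant, Esrrb (log2 fold change -0.79), Zfp42 (-0.62) and Sall4 (-0.23). The others were Pou5f1 (0.12), Tdgf1 (0.04), Dppa5a (-0.03) and Utf1 (-0.03). DESeq2 called Nanog, Klf4 and Zfp42 lower and no ES cell marker higher. Sox2 was listed at 0 in all 4 libraries; it lies wholly inside Sox2ot, on the same strand, and the sources used here do not say how reads shared by overlapping genes were counted. Markers of primitive endoderm, an extraembryonic lineage, summed to 491 and 679 CPM in KO and to 203 and 254 CPM in WT, with 6 of 8 called higher, among them Col4a1 (log2 fold change 1.44), Gata6 (1.24) and Gata4 (1.21). Trophoblast markers summed to 97.2 and 116 CPM in KO and to 73.9 and 65.9 CPM in WT, with 5 of 7 tested called higher, among them Krt8 (log2 fold change 1.83) and Krt18 (1.76), and Elf5 not tested. Tfap2c, the trophoblast marker of the highest mean level, went the other way, at 28.3 and 39.9 CPM in KO and 48.0 and 44.6 CPM in WT, and did not pass (log2 fold change -0.43, edgeR adjusted p = 0.128), though it was called lower without KO replicate 2. DESeq2, with all 4 libraries, called only 2 trophoblast markers higher, Krt8 and Krt18. The 8 primitive streak markers summed to 6.38 and 5.67 CPM in KO and to 5.94 and 5.91 CPM in WT. The 8 fibroblast markers summed to 40.5 and 34 CPM in KO and 38.7 and 31.2 CPM in WT. Of the fibroblast sum, Fbn1 alone made up 37.1 and 30.4 CPM in KO and 33.9 and 27.1 CPM in WT. A change in the share of a cell type and a change in RNA per cell cannot be told apart in these bulk libraries.

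Wnt8a rose, Lef1 fell, and the other 8 genes did not pass the test. The test was edgeR's quasi-likelihood test over 16789 genes, with a Benjamini-Hochberg adjusted p under 0.05. All 10 genes passed the filter on low counts. By the same rule 4.05% of all genes tested were higher in KO and 4.02% lower, against 1 of 10 in each direction here. DESeq2 called 1 of the 10 higher and 1 lower too, beside 3.71% of genes higher and 3.28% lower, but the higher gene was Wnt3. The median KO over WT log2 fold change stood at -0.02 for the 10 genes and at 0.01 for all genes tested. Both KO libraries lay outside the range of the WT libraries for 6 of the 10 genes, 3 above and 3 below, beside 52.7% of all genes tested (26.7% above, 26% below).

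**Figure D1:**
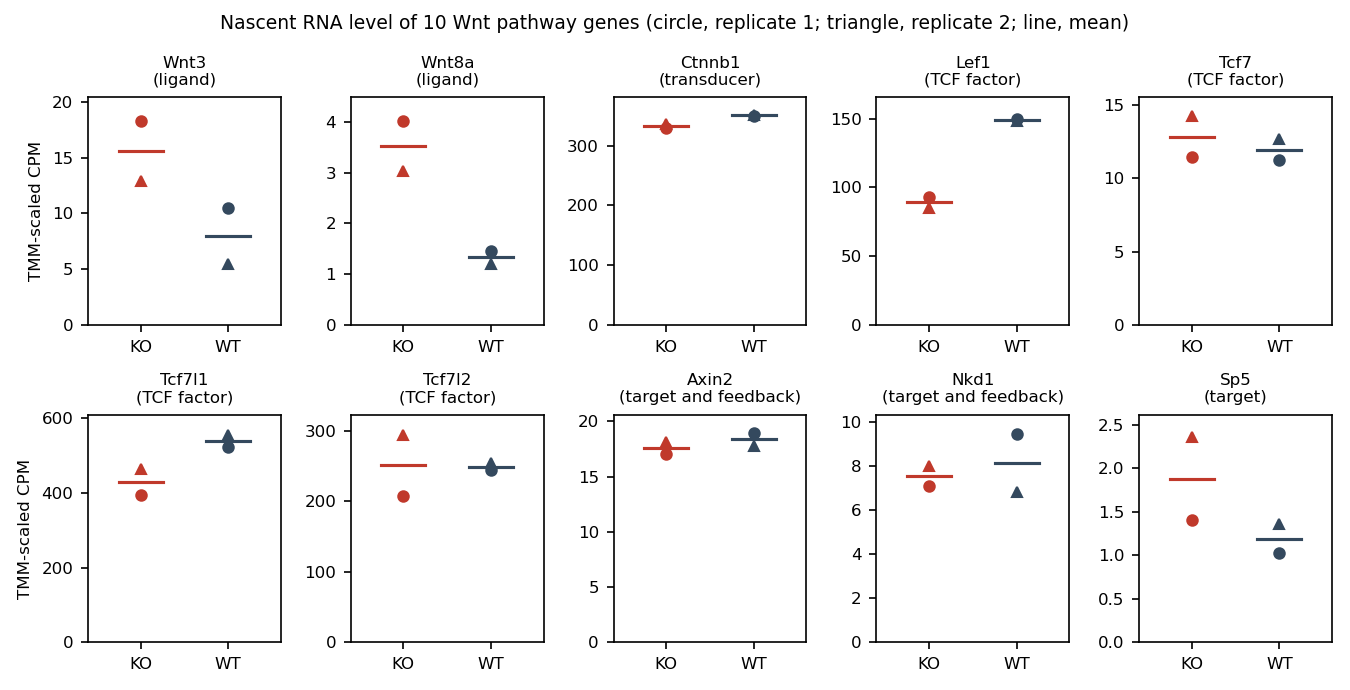
TMM-scaled CPM (linear axis from 0) of the 10 genes in each library, KO on the left and WT on the right of each panel. Lef1 stands at 93.0 and 85.2 CPM in KO against 149.9 and 148.0 CPM in WT, and Wnt8a at 4.01 and 3.03 CPM in KO against 1.47 and 1.20 CPM in WT, with no overlap of the genotypes.

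Promoters are shown for the ligand Wnt3, for Lef1, which had the smallest adjusted p of the 10 genes, and for the feedback targets Axin2 and Sp5, so that the search for TCF/LEF motifs can be read on the letters. They are the bases upstream of the RefSeq start (GRCm38.p6, plus strand), 250 for each gene except Wnt3, where 225 lie before the start of the gene in the deposited table. The Lef1 stretch ends 174 bases before the start of Lef1 in that table. Capitals mark a match to CTTTGAT or CTTTGAA, forms of the TCF/LEF motif, on either strand.
Wnt3, chr11:103773925-103774149: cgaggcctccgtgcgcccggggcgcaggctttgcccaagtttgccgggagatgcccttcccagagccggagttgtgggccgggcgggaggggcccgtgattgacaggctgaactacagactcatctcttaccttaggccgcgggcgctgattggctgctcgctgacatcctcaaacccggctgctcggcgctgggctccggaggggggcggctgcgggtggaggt
Lef1, chr3:131110047-131110296: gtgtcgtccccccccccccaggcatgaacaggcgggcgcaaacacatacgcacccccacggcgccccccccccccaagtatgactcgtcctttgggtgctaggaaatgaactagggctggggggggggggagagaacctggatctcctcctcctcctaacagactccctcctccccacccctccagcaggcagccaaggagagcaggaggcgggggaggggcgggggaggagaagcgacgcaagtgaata
Axin2, chr11:108920099-108920348: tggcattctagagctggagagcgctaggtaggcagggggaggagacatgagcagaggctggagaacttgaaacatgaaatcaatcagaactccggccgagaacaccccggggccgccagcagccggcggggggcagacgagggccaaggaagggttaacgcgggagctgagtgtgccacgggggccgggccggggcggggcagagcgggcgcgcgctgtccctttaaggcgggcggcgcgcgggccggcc
Sp5, chr2:70474673-70474922: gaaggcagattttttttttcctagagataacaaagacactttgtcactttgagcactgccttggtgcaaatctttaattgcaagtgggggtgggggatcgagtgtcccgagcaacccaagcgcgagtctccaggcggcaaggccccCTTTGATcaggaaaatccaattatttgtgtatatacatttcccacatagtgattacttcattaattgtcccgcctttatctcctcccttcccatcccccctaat
In the full RefSeq windows (250 bases before to 50 after a start), 9 of the 10 genes matched by symbol, all but Wnt8a, with 15 windows in all. Of those 15 windows, that of Sp5 held the 1 match, a CTTTGAT on the strand of the gene whose first base is at -104 from the start. Among all 32851 windows, 3.73% held CTTTGAT, 5.14% held CTTTGAA and 8.65% held either. The printed stretches are 68.9% G or C for Wnt3, 66.4% for Lef1, 69.2% for Axin2 and 46% for Sp5.

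Both ligand genes had more nascent RNA in KO, and Wnt8a alone passed the test. Wnt8a, a ligand of the early embryo and primitive streak, had 54 and 54 counts in KO and 20 and 23 counts in WT. The 95% Clopper-Pearson intervals, which cover counting error only, ran from 40.6 to 70.5 counts in each KO library, and in WT from 12.2 to 30.9 and from 14.6 to 34.5 counts, so KO and WT intervals did not meet. Its mean level was 3.52 ± 0.69 CPM in KO and 1.33 ± 0.19 CPM in WT (SD, n = 2 each). The log2 fold change was 1.40 ± 0.30 (SE; edgeR, adjusted p = 0.0265), a 2.63-fold higher level in KO. The call was lost without WT replicate 2 (log2 fold change 1.25, edgeR adjusted p = 0.118) and in DESeq2 (1.40, adjusted p = 0.0666).

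Wnt3, the ligand needed to start gastrulation in the mouse, stood at 18.2 and 12.9 CPM in KO and at 10.5 and 5.49 CPM in WT. The genotypes did not overlap, but the WT libraries lay 0.93 apart on the log2 scale, close to the difference between genotypes. Its means were 15.6 ± 3.78 CPM in KO and 7.98 ± 3.53 CPM in WT (SD, n = 2 each). The log2 fold change of 0.98 ± 0.29 missed the threshold in edgeR (adjusted p = 0.0751; 95% interval 0.33 to 1.64). Leaving out WT replicate 1 put it at 1.49, and leaving out WT replicate 2 put it at 0.57. Without KO replicate 1 it stood at 0.73, and without KO replicate 2 at 1.23. Any fit that leaves out 1 library keeps only 1 library of that genotype, so its p-values take the spread from the other genotype alone. Among the alternative fits that keep all 4 libraries, Wnt3 passed in DESeq2 (0.98, adjusted p = 0.0241). In edgeR it also passed with no filter on low counts (1.00, adjusted p = 1.5e-06) and with a term for the pairs of libraries of like depth (1.00, adjusted p = 5.9e-10). That term was defined from the library totals and leaves 1 residual degree of freedom. Per Ctnnb1 count, a ratio that no scaling of libraries can move, Wnt3 had 0.0555 and 0.0385 counts in KO and 0.0300 and 0.0156 counts in WT.

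The protein-coding genes next to both ligand genes did not pass the test. Beside Wnt8a on chromosome 18 (34542313 to 34548273, mm10, plus strand), Fam13b stood at a log2 fold change of 0.17 ± 0.10 and Nme5 at 0.73 ± 0.43. Wnt3 lies on chromosome 11 (103774150 to 103817957, plus strand), 24.3 kb from another ligand gene, Wnt9b, which was near 1 CPM in both genotypes (1.2 ± 0.45 in KO, 1.1 ± 0.43 in WT, SD, n = 2 each). On its other side, 3.83 kb away, the vesicle fusion gene Nsf had a log2 fold change of 0.15 ± 0.09. The median log2 fold change of the genes tested within 2 Mb was 0.05 around Wnt8a (48 genes) and 0.03 around Wnt3 (55 genes).

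Ctnnb1, which encodes beta-catenin, was close to the same level in the genotypes. It stood at 329 and 336 CPM in KO and at 349 and 351 CPM in WT, both KO libraries below both WT libraries. The log2 fold change was -0.08 ± 0.10 with a 95% interval from -0.30 to 0.14, and it did not pass (edgeR, adjusted p = 0.703). Ctnnb1 lies on chromosome 9 (120929216 to 120960507, plus strand) and shares 16.5% of its span with Ulk4, which runs on the opposite strand, and Ulk4 had a log2 fold change of 0.06 ± 0.11.

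Among the 4 TCF/LEF genes, Lef1 fell, while Tcf7l1, Tcf7l2 and Tcf7 did not pass the test. Lef1, an activating member of the family and itself a reported Wnt target, stood at 93.0 and 85.2 CPM in KO and at 149.9 and 148.0 CPM in WT. The KO libraries lay 0.13 apart on the log2 scale and the WT libraries 0.02 apart, and the genotypes did not overlap. The means were 89.1 ± 5.51 CPM in KO and 148.9 ± 1.31 CPM in WT (SD, n = 2 each). Lef1 had a log2 fold change of -0.74 ± 0.09 (edgeR, adjusted p = 0.00272), a level in KO of 0.598 times that in WT. Lef1 was called in all 4 fits that left out 1 library (-0.81 to -0.68). It lies on chromosome 3 (131110471 to 131224356, plus strand), and its neighbour Hadh, a gene of fatty acid oxidation, had a log2 fold change of -0.22 ± 0.09 that did not pass (edgeR, adjusted p = 0.174).

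Tcf7l1, the repressing member of the family in ES cells, stood at 394 and 465 CPM in KO and at 522 and 556 CPM in WT. Both KO libraries were lower than both WT libraries. Its log2 fold change was -0.33 ± 0.12, with a 95% interval from -0.60 to -0.06, and it did not pass over all genes (edgeR, adjusted p = 0.140). It passed without KO replicate 2 (-0.45, edgeR adjusted p = 0.00923) and stood at -0.21 without KO replicate 1. With the depth-pair term it passed as well (-0.33, edgeR adjusted p = 4.7e-05). The neighbours of Tcf7l1 on chromosome 6 (72626378 to 72789254, minus strand) had positive values, 0.14 ± 0.10 for Tgoln1 and 0.31 ± 0.11 for Kcmf1, neither of which passed (edgeR, adjusted p = 0.479 and 0.150).

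Tcf7l2, which acts in many tissues as the main nuclear partner of beta-catenin, differed more between the KO libraries than between the genotypes. It stood at 208 and 295 CPM in KO, a gap of 0.50 on the log2 scale, and at 244 and 254 CPM in WT, a gap of 0.06. Its log2 fold change of 0.01 ± 0.15 did not pass, and it stood at 0.24 without KO replicate 1 and at -0.26 without KO replicate 2. Tcf7l2 lies on chromosome 19 (55741810 to 55933654, plus strand). Vti1a, the nearest tested gene, had 255 ± 51.8 CPM in KO and 264 ± 4.34 CPM in WT (SD, n = 2 each), again with the wider spread in KO.

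Tcf7, which like Lef1 is a reported Wnt target, stood at 11.4 and 14.2 CPM in KO and at 11.2 and 12.7 CPM in WT, with overlap. Its log2 fold change of 0.10 ± 0.17 did not pass (edgeR, adjusted p = 0.769). Along 55.9% of its span on chromosome 11 (52252371 to 52283014, minus strand) Tcf7 overlaps the long non-coding gene Gm26551 on the same strand, which had a log2 fold change of 0.05, so its level is uncertain.

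**Figure D2:**
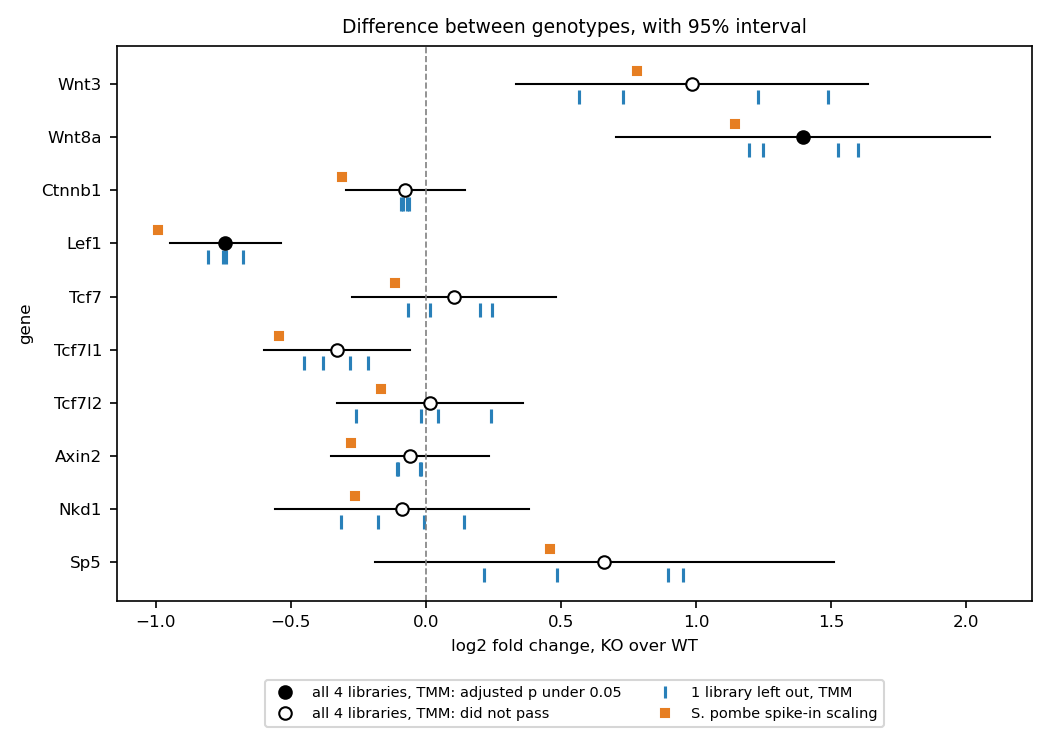
Log2 fold change of KO over WT for each of the 10 genes (points, edgeR with TMM scaling; bars, 95% interval), with the values when 1 library is left out (blue ticks) and with S. pombe spike-in scaling (orange squares). Lef1 stays between -0.81 and -0.68 with a library left out, whereas Wnt3 ranges between 0.57 and 1.49 and Tcf7l2 takes both signs.

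Set per length, Tcf7l1 was the most transcribed TCF/LEF gene in both genotypes and Lef1 made up a smaller part of the 4 in KO. Counts per kb of gene span put Tcf7l1 at 51.6% and 50.9% of the summed TCF/LEF level in the KO libraries and at 52.0% and 52.9% in the WT libraries. Lef1 made up 17.4% and 13.4% in KO and 21.4% and 20.2% in WT. Tcf7l2 made up 23.1% and 27.4% in KO and 20.7% and 20.5% in WT. For Tcf7 the shares were 7.95% and 8.27% in KO and 5.94% and 6.40% in WT. Per kb of merged exons the share of Lef1 was 7.62% and 5.80% in KO and 9.37% and 8.76% in WT. The source does not state whether exons or whole genes were counted. Under both lengths the genotypes did not overlap for any of the 4 genes. The 4 shares of a library make up a whole, so a change in any of them shifts the others. These shares are free of library scaling, as is the ratio of Lef1 to Tcf7l2 counts, which was 0.448 and 0.289 in KO and 0.614 and 0.584 in WT.

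**Figure D3:**
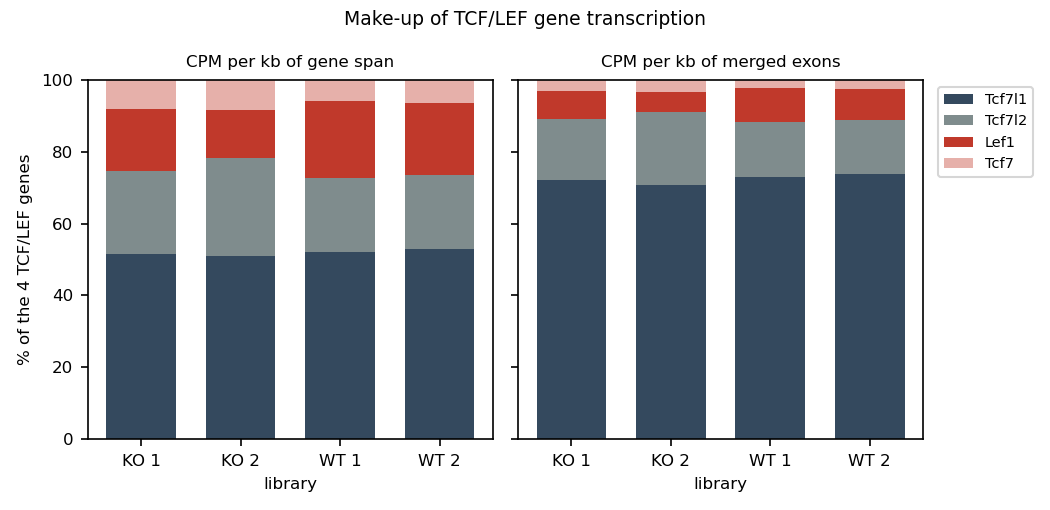
Share of each TCF/LEF gene in the summed level of the 4 genes in each library, KO on the left, as CPM per kb of gene span (left panel) and per kb of merged exons (right panel). Lef1 takes 17.4% and 13.4% in KO against 21.4% and 20.2% in WT by gene span.

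The target genes Axin2, Nkd1 and Sp5 did not pass the test in either direction. Axin2, a scaffold of the destruction complex that serves as the usual readout of the pathway, stood at 17.1 and 18.1 CPM in KO and at 19.0 and 17.8 CPM in WT, with overlap. Its log2 fold change was -0.06 ± 0.13, with a 95% interval from -0.35 to 0.23 (edgeR, adjusted p = 0.836). Per Ctnnb1 count Axin2 had 0.0519 and 0.0540 counts in KO and 0.0543 and 0.0506 counts in WT. Axin2 lies on chromosome 11 (108920349 to 108950783, plus strand), and its promoter printed above held no match to either motif.

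Nkd1, an inhibitor that binds Dishevelled, stood at 7.12 and 8.02 CPM in KO and at 9.45 and 6.85 CPM in WT. The KO values lay between the WT values, and the log2 fold change was -0.09 ± 0.21 (edgeR, adjusted p = 0.850; 95% interval -0.56 to 0.38). Nkd1 lies on chromosome 8 (88521354 to 88594884, plus strand). Sp5, a zinc finger repressor on chromosome 2 (70474923 to 70477729, plus strand) and the gene whose promoter held the CTTTGAT match, had 19 and 42 counts in KO and 14 and 26 counts in WT. Its level was 1.41 and 2.36 CPM in KO and 1.03 and 1.36 CPM in WT, so the lowest KO library lay just above the highest WT library. The 95% Clopper-Pearson intervals in counts were 11.4 to 29.7 and 30.3 to 56.8 in KO and 7.65 to 23.5 and 17.0 to 38.1 in WT. The log2 fold change of 0.66 ± 0.37 did not pass (edgeR, adjusted p = 0.340), and its 95% interval from -0.19 to 1.51 holds both no change and a change as large as that of Wnt8a. Myo3b, the tested gene 45.7 kb from Sp5, fell to 3.75 ± 0.80 CPM in KO, against 8.0 ± 0.44 CPM in WT (SD, n = 2 each; log2 fold change -1.08, edgeR adjusted p = 0.0196). Erich2, on the other side of Sp5, had a log2 fold change of 0.67 ± 0.34 and did not pass. The neighbours Rpl14 of Ctnnb1, Rpl34 of Lef1, Skp1a and Vdac1 of Tcf7, Habp2 of Tcf7l2, Cep112 and Rgs9 of Axin2, and Brd7 and Snx20 of Nkd1 did not pass either, with log2 fold changes between -0.74 (Snx20) and 0.12 (Cep112).

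Per kb of gene span, Ctnnb1 and Tcf7l1 had the highest mean levels and Wnt3 and Nkd1 the lowest in both genotypes, with changes of place among the others. Per kb of gene span the KO levels were 10.6 CPM for Ctnnb1, 2.64 for Tcf7l1, 1.31 for Tcf7l2, 0.783 for Lef1, 0.671 for Sp5, 0.590 for Wnt8a, 0.578 for Axin2, 0.418 for Tcf7, 0.356 for Wnt3 and 0.103 for Nkd1. The WT levels per kb were 11.2 CPM for Ctnnb1, 3.31 for Tcf7l1, 1.31 for Lef1, 1.30 for Tcf7l2, 0.604 for Axin2, 0.425 for Sp5, 0.389 for Tcf7, 0.224 for Wnt8a, 0.182 for Wnt3 and 0.111 for Nkd1. Neighbours in this order whose libraries overlapped in KO were Lef1, Sp5, Wnt8a and Axin2, and also Tcf7 and Wnt3. In WT they were Lef1 and Tcf7l2, Sp5 and Tcf7, Wnt8a and Wnt3, and Wnt3 and Nkd1. Per kb of merged exons Tcf7l1 stood above Ctnnb1 in both genotypes, at 109 against 64.0 CPM in KO and 137 against 67.5 CPM in WT. On that length Sp5 was the lowest in both genotypes, at 0.897 CPM in KO and 0.568 CPM in WT, and Wnt3 stood higher in the order, at 5.1 CPM in KO and 2.6 CPM in WT.

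The S. pombe spike-in gives a scale that is not relative to other mouse transcripts, and on it no gene of the 10 passed. The median of all genes shifted by -0.23 on the log2 scale, and the common biological coefficient of variation was 0.363 against 0.0952 with TMM. Lef1 stood at -0.99, Wnt8a at 1.15, Wnt3 at 0.78 and Tcf7l1 at -0.54, each with an edgeR adjusted p of 1.00. With this scaling edgeR called 0 of the 10 genes (0 at an unadjusted p under 0.05) and 17 of all genes, 1 higher (0.00596%) and 16 lower (0.0953%). Tcf7 and Tcf7l2 took a negative sign, -0.12 and -0.17. The authors' deposited table, which is scaled by the spike-in, gives Lef1 normalized values of 1039 and 1616 in KO and 1990 and 3288 in WT. The authors' deposited table gives Wnt8a 44.7 and 57.4 in KO and 19.5 and 26.7 in WT, and Wnt3 204 and 245 in KO and 139 and 122 in WT. For these 3 genes the spike-scaled values of the genotypes did not overlap either. The shrunken log2 fold changes in the authors' deposited table are -0.73 for Lef1, 0.70 for Wnt8a and 0.57 for Wnt3, all with an adjusted p of 0.999, and 8 of 29514 genes there have an adjusted p under 0.05.

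Beyond the 10 genes, 105 other pathway genes were set out by role, of which 90 were tested. Of these, 6 were higher (6.67%) and 5 lower (5.56%), beside 4.05% and 4.02% of all genes tested, and 79 did not pass. The median log2 fold change of the 90 was -0.01. Their summed level was 8074 and 9175 CPM in KO and 8585 and 9104 CPM in WT.

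Among 17 Wnt ligand genes other than Wnt3 and Wnt8a, 12 were tested, with a median of 0.17, and Wnt4 and Wnt9a rose. Wnt4, known for its part in gonad and kidney development, stood at 8.46 and 9.71 CPM in KO and at 4.10 and 4.18 CPM in WT (log2 fold change 1.13 ± 0.19, edgeR adjusted p = 0.0102). Wnt9a stood at 14.2 and 10.2 CPM in KO and at 6.74 and 5.18 CPM in WT (1.04 ± 0.22, edgeR adjusted p = 0.0249), and it was not called without WT replicate 2 (0.85, edgeR adjusted p = 0.0538). Of these 12 genes, 7 had a positive and 5 a negative log2 fold change, and 10 did not pass. The most transcribed ligand by counts, Wnt7b, averaged 22.1 CPM over the libraries and had a log2 fold change of -0.43 that did not pass. With a term for the pairs of libraries of like depth, edgeR called Wnt7b lower and Wnt7a and Wnt11 higher. The 17 genes summed to 57.4 and 64.9 CPM in KO and to 53.3 and 57.5 CPM in WT, with overlap, and Wnt1 was at 0 in every library.

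Genes for ligand secretion and reception moved in both directions. Porcn, the acyltransferase that attaches the lipid ligands need for secretion, fell to 9.35 and 10.5 CPM in KO, against 19.3 and 21.5 CPM in WT (log2 fold change -1.03 ± 0.15, edgeR adjusted p = 0.0049). Wls, the carrier of lipidated ligands to the cell surface, rose to 36.6 and 31.6 CPM in KO, against 24.6 and 19.7 CPM in WT (0.63 ± 0.14, edgeR adjusted p = 0.0295). The receptor gene Fzd5 fell to 24.5 and 39.7 CPM in KO, against 63.0 and 66.4 CPM in WT (-1.0 ± 0.19, or -0.71 without KO replicate 1). The coreceptor gene Ptk7 rose by 0.67 ± 0.16, ranging from 0.41 without KO replicate 1 to 0.90 without KO replicate 2. Neither Wls (edgeR adjusted p = 0.151) nor Ptk7 (0.0762) was called without WT replicate 2. The receptor gene Fzd3, named because it was the remaining call of the list, rose by 0.59 ± 0.11, and the 43 tested genes within 2 Mb of it on chromosome 14 had a median of 0.51. The other 20 of the 25 genes tested in this list did not pass, among them the LRP coreceptor gene Lrp6 (-0.03 ± 0.13). Lgr4, the most transcribed gene of the list by counts, stood at -0.35 ± 0.14 (edgeR, adjusted p = 0.165). In edgeR 12 of the 25 had an unadjusted p under 0.05, beside 3842 of all 16789 genes tested. With a term for the pairs of libraries of like depth, edgeR called 7 of the list higher and 6 lower, Lgr4 among the lower.

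Of 20 antagonist and feedback genes other than Axin2 and Nkd1, 13 were tested, and Sfrp1 and Apcdd1 fell. Sfrp1, which encodes a secreted Wnt-binding protein, fell to 15.4 and 17.7 CPM in KO, against 25 and 25.1 CPM in WT (log2 fold change -0.60 ± 0.13, edgeR adjusted p = 0.0258, and 0.0702 without WT replicate 2). Apcdd1, a membrane inhibitor and a reported target of the pathway, fell to 11.6 and 14.5 CPM in KO, against 21.6 and 21.2 CPM in WT (-0.71 ± 0.15, edgeR adjusted p = 0.0236). The median of the 13 genes was -0.23, with 10 negative and 3 positive values, and 11 of them did not pass. Among those 11, Notum stood at -0.64 ± 0.18 and Dact3 at -0.82 ± 0.28 (edgeR, adjusted p = 0.0692 and 0.124). Both were called lower with no filter on low counts and with a term for the pairs of libraries of like depth. In the other direction, Rnf43, which encodes a ligase that removes Frizzled from the membrane, stood at 0.64 ± 0.21 (edgeR, adjusted p = 0.104). Kremen1, a DKK receptor gene, stood at 0.23 ± 0.09 (edgeR, adjusted p = 0.172). Rnf43 was called higher without KO replicate 1, with no filter on low counts and with a term for the pairs of libraries of like depth, and Kremen1 with that term.

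No gene of the transduction and destruction complex list was called. Over its 20 tested genes, Ctnnb1 among them, the median was 0.06; edgeR called 0 with 1 at an unadjusted p under 0.05, and DESeq2 and limma voom also called 0. The kinase gene Csnk1a1 stood at 523 and 609 CPM in KO and at 531 and 562 CPM in WT, and Gsk3b at 489 and 572 CPM in KO and at 492 and 513 CPM in WT. With a term for the pairs of libraries of like depth, edgeR called Fbxw11 of this list higher and Amer1 and Btrc lower. Among 13 nuclear cofactors other than the TCF/LEF genes, all tested, the corepressor gene Tle3 fell and 12 did not pass. The median of the 13 was -0.12, with 9 negative and 4 positive values. Tle1 stood at -0.34 ± 0.12, Aes at -0.59 ± 0.20 and Bcl9 at -0.27 ± 0.10. With the depth-pair term edgeR called these genes lower too, and none of the 13 higher. Tle3 fell to 92.5 and 114.8 CPM in KO, against 139 and 148.9 CPM in WT (log2 fold change -0.47 ± 0.11, edgeR adjusted p = 0.0394). Tle3 was not called without WT replicate 2 (edgeR adjusted p = 0.152) and stood at -0.33 without KO replicate 1.

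Of 17 further reported target genes 14 were tested, and Cdx2 rose while Apcdd1 fell. Cdx2, a trophoblast and posterior regulator, stood at 1.48 and 0.90 CPM in KO and at 0.29 and 0.21 CPM in WT (log2 fold change 2.21 ± 0.52, edgeR adjusted p = 0.0357), and it was not called without KO replicate 1 (edgeR adjusted p = 0.136) or without WT replicate 2 (0.225). Cdx2 is also one of the trophoblast markers whose sum is given above. T, the Brachyury gene of the primitive streak, stood at 0.74 and 0.95 CPM in KO and at 0.81 and 0.63 CPM in WT and did not pass. Myc stood at 51.3 and 36.6 CPM in KO and at 33.3 and 23.9 CPM in WT. It did not pass in edgeR (adjusted p = 0.0874), but DESeq2 called it higher. In edgeR Myc was called higher with no filter on low counts and with a term for the pairs of libraries of like depth. The 7 tested genes within 2 Mb of Myc had a median log2 fold change of 0.46, beside 0.62 for Myc itself. For Cdx2 DESeq2 gave no adjusted p.

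Of 4 pluripotency genes known to be repressed by Tcf7l1, Klf2, Nanog and Tfcp2l1 fell. Their log2 fold changes were -0.66 ± 0.12 for Klf2, -0.53 ± 0.13 for Nanog and -0.73 ± 0.18 for Tfcp2l1 (edgeR, adjusted p = 0.0131, 0.0362 and 0.0425). Esrrb, the remaining gene, had -0.79 ± 0.22 and did not pass (edgeR, adjusted p = 0.0682). Esrrb was called lower with no filter on low counts and with the depth-pair term, but not in DESeq2. Without KO replicate 1 the values were -0.35 for Nanog and -0.46 for Tfcp2l1. Nanog and Esrrb are also among the ES cell markers summed above. The summed levels of primitive endoderm, trophoblast and ES cell markers did not overlap between the genotypes, as with Wnt8a, Wnt4, Wnt9a and Lef1, and their part in these results was not tested.

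**Figure D4:**
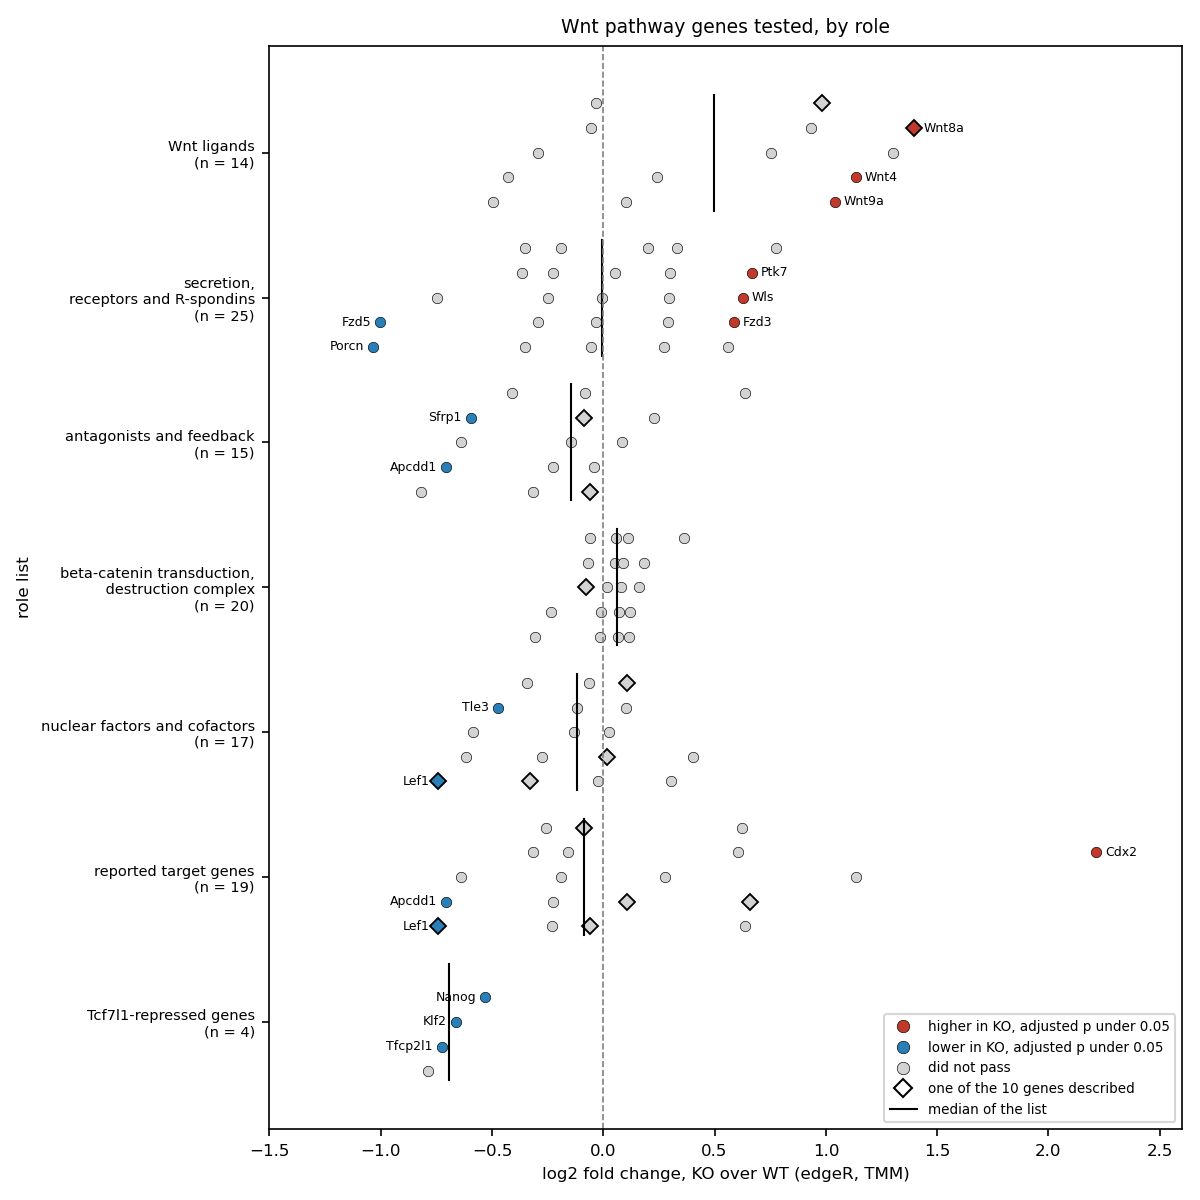
Log2 fold change of KO over WT for the tested genes of each role list (red, higher in KO; blue, lower in KO; grey, did not pass; diamonds, the 10 genes described; vertical line, median of the list). The ligands have a median of 0.50 with Wnt3 and Wnt8a and of 0.17 without them, and the transduction and destruction complex genes lie around 0.06, with calls named beside their points.

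Between libraries of like depth the differences had the same sign for Wnt8a, Wnt3, Lef1 and Tcf7l1. The genotypes did not overlap for these genes, so any pairing of a KO with a WT library had to give the same sign. Between the KO and WT libraries with fewer counts and between those with more, the log2 difference was 1.45 and 1.33 for Wnt8a, 0.80 and 1.23 for Wnt3, -0.69 and -0.80 for Lef1, and -0.41 and -0.26 for Tcf7l1. For Tcf7l2 it was -0.23 and 0.22, and for Nkd1 -0.41 and 0.23. These pairs were defined from the library totals.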

How the data were processed

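Per the labels' protocols, TT-seq libraries were made from 4sU-labelled, purified and sonicated RNA with a stranded kit and no ribosomal depletion; the molecule label reads polyA RNA. The build mm10 and STAR 2.5.3, HTSeq 0.6.1p1, cutadapt 1.10, bcl2fastq 2.20.0.422 and DESeq2 1.16.1 are listed, per the submitters' processing notes. Neither the counted feature nor the strand setting nor the annotation release is stated in the sources used here. The deposited values are raw counts for 54146 genes of mouse and 7259 of S. pombe. A second table holds the same counts (100% equal) and the authors' normalized signal values, which are counts divided by size factors equal to those of the S. pombe counts within 2.22e-16. It also holds the authors' log2 fold changes, shrunken by a beta prior per the table's name, and the authors' p-values.

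Genes were kept by filterByExpr (minimum count 10), leaving 16789, and tested with edgeR 4.0.16 in R 4.3.3 with TMM factors. Standard errors were obtained as the log2 fold change over the square root of F. Replicates were numbered in accession order, and no library was a duplicate (chi-square per degree of freedom 9.62 in KO and 5.55 in WT). Counts were simulated independently for each library from the dispersion trend over all genes. In them edgeR called 29.9%, 68.7% and 92.4% of genes given log2 changes of 0.5, 1 and 2, and 0.0422% of unchanged genes. Spread particular to a gene or shared between libraries was not simulated, so these rates may not hold for the real libraries. Alternatives used DESeq2 1.42.0 and limma 3.58.1. Exon lengths and overlaps were taken from GENCODE on mm10 and the deposited coordinates; tables and figures were made in Python 3.11.15.

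The members and gene lists were chosen with earlier results of these data known. Named were the 10 members, up to 4 called genes of each role list by size of change (or the 2 of highest CPM where none was called), and the tested protein-coding gene on each side of a member. Of each marker list the rule takes up to 3 genes of highest CPM. Wnt7a, Wnt11, Lgr4, Tle1, Aes and Bcl9 were named after their values were seen. Fzd3, Lrp6, Btrc, Amer1, Fbxw11, Rnf43, Kremen1, Notum, Dact3, T, Myc and Wnt7b were also named after their values were seen. So were the other ES cell markers given and the overlapping genes.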

Additional observations from a re-analysis of the deposited data

How the results depend on the processing

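The labels give no replicate numbers that pair the libraries, so the one paired fit used pairs set by library totals. Fits that leave out 1 library keep only 1 library of that genotype, so their calls take the spread from the other genotype alone. Of the 10 genes, edgeR called 1 higher and 1 lower with all libraries; leaving out 1 library gave 0 to 2 higher and 1 to 2 lower. Over all genes 680 were higher and 675 lower, and leaving out 1 library gave 379 to 1481 higher and 439 to 1342 lower. Of the other pathway genes 6 were higher and 5 lower, against 2 to 10 and 3 to 15 with 1 library left out; the lowest counts in both come without WT replicate 2 and the highest without KO replicate 2. Dropping the low-count filter, edgeR called 2 of the 10 higher (Wnt3 added), 11 and 11 pathway genes and 1260 and 1200 of all genes, higher and lower. Adding the depth pair as a term, defined from the data and leaving 1 residual degree of freedom, gave 2 higher (Wnt3 added) and 2 lower (Tcf7l1 added) of the 10, 16 and 19 pathway genes and 2214 and 2093 of all genes. S. pombe scaling gave 0 and 0 of the 10 (0 at an unadjusted p under 0.05), 0 and 0 pathway genes (2 unadjusted) and 1 and 16 of all genes; the libraries of a genotype lie far apart on that scale. DESeq2 also called 1 of the 10 higher, but Wnt3 in place of Wnt8a. Lef1 was called under 10 of 11 alternatives and Wnt8a under 8 of 11. Signs turned in genes that were not called: Tcf7 (-0.12 with S. pombe scaling, -0.0675 to 0.24 with 1 library left out), Nkd1 (-0.31 to 0.14 with 1 left out) and Tcf7l2 (-0.0121 in limma voom, -0.17 with S. pombe scaling, -0.0024 with the depth term, -0.26 to 0.24 with 1 left out). The cause was not tested. Sp5 was not tested at a mean of at least 2 CPM. Counts limit Wnt8a and Sp5 most.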
